A study of Mus musculus with 12 samples.

Results

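Chronic ethanol in the wild-type cortex was examined as WT + EtOH against WT, with 3 small RNA libraries in each group. These 6 libraries, of 12 in the whole series, were taken by their labels, and all 589 miRNA precursors of the deposited table were compared. All mice were female and of the strain C57BL/6J, 7 weeks old at the start by the study's methods. The WT + EtOH mice drank water with 10% (v/v) ethanol for 5 months and the WT mice drank water. By the same methods each library held the RNA of 3 pooled mice, so that a spread between libraries is a spread between pools. The other 6 libraries came from TLR4-KO mice, which lack the receptor in every cell, with the same ethanol (TLR4-KO + EtOH) or with water (TLR4-KO).

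A miRNA is a short RNA cut from a hairpin precursor that pairs with messenger RNAs, mainly through its seed (bases 2 to 8), and lowers their translation and stability. TLR4 is the innate immune receptor for bacterial lipopolysaccharide, and in the brain it is found above all on microglia. Prolonged alcohol drinking is known to activate glial cells through this receptor, and several miRNAs are induced by its NF-kB pathway.

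In WT + EtOH, 6 precursors were up-regulated and 4 were down-regulated. Up-regulated were mir-125a, mir-125b-2, mir-351, mir-744, mir-150 and mir-7224, by 4.22 to 13.2 scale units. Down-regulated were mir-96, mir-6952, and mir-451a and mir-451b, which hold the same values, by 4.56 to 17.0 scale units. In all 10 the WT + EtOH libraries lay on the same side of WT as the TLR4-KO and TLR4-KO + EtOH libraries, and no other library fell within the range of WT. The unit is the deposited value, taken to be a scaled logarithm. It lies on the same set of levels in every library, from 0 to 134.8. A difference of means is given in these units and not as a fold. Called means an adjusted p under 0.05 in limma's test across all precursors.

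The mature sequences below show what the up-regulated and some of the lower precursors encode, 5′ to 3′, with the seed in capitals. They are the RefSeq sequences of GRCm38.p6. For mir-150 only the 3p arm was found there, so that its 5p arm is not printed. The first 3 share 1 seed, and the products of mir-351, mir-744 and mir-7224 are rich in G and C.
miR-125a-5p: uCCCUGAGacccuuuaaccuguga
miR-125b-5p: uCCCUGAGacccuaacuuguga
miR-351-5p: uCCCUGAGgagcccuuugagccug
miR-744-5p: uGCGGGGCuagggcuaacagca
miR-7224-5p: gGGUAGGCcccucagugaaga
miR-150-3p: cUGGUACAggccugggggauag
The next 8 were picked from the precursors that were down-regulated or lower in WT + EtOH, and all 8 hold more A and U than G and C. Not all lower precursors do: mir-451b and mir-375, which are not printed, are listed with 57.1% and 68.2% of G and C. For the down-regulated mir-6952 no mature sequence was found.
miR-451a: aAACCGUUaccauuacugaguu
miR-96-5p: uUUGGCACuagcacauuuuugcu
miR-182-5p: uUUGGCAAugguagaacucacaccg
miR-183-5p: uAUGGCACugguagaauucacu
miR-200b-3p: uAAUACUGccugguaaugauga
miR-26b-5p: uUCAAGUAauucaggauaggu
miR-9-5p: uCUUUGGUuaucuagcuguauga
miR-384-5p: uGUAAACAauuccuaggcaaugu

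Of the 589 precursors, 307 were above 0 in at least 1 of the 6 libraries and 202 in all 6. The files give no reads, so that the depth of each library is unknown. For whole groups the study's paper reports miRNA reads, which were fewer in WT + EtOH than in WT and had a larger spread. The part of depth in the following counts was not tested. The number of precursors above 0 was 260 to 270 in WT, and 270, 233 and 229 in WT + EtOH replicates 1, 2 and 3. The lowest value above 0 was 1.25 to 4.23 in WT, and 1.25, 8.17 and 11.3 in those WT + EtOH replicates. Over the 307 precursors, Spearman's rho between libraries was 0.967 to 0.972 within WT, 0.914 to 0.958 within WT + EtOH and 0.919 to 0.941 across the groups, with WT + EtOH replicate 1 the least like the others of its group. Among the 202 precursors above 0 in all 6 libraries, the median SD was 1.82 scale units in WT and 3.68 in WT + EtOH, and it was larger in WT + EtOH for 162 of them. Neural tissue was seen in the neuronal markers, of which 9 of 10 were above 0 in all 6 libraries, with summed levels of 484.8 to 494.2 in WT and 487.8 to 498.1 in WT + EtOH. These markers do not tell the cortex from other brain regions. Markers of epithelium and pituitary, which were lower in WT + EtOH, are given further on. The liver marker mir-122 and the 3 heart and muscle markers were at 0.

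The 10 called precursors were 1.7% of the 589, with 1.02% up-regulated and 0.679% down-regulated. At an unadjusted p under 0.05 there were 74 (36 higher and 38 lower), which is 24.1% of the 307 precursors above 0. Libraries that did not overlap between the groups were found for 99 of the 307 (32.2%), with 43 higher in WT + EtOH (14.0%) and 56 lower (18.2%). The means were higher for 153 and lower for 152 precursors, and the median difference was 0. Because the values were put on the same levels in every library, higher and lower values largely offset each other. This near balance is therefore not a result about ethanol. With the 6 libraries fitted alone, mir-125b-2 and mir-6952 were still called, and the other 8 had adjusted p values of 0.0567 to 0.143. With every value under 14.07, the highest of the lowest values above 0 in the 12 libraries, set to it, mir-125a, mir-125b-2, mir-351 and mir-7224 were still called.

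The miR-125 seed family, mammalian relatives of the first miRNA described in nematodes, gave 3 of the 6 up-regulated precursors. mir-125b-2 (chromosome 16, 77646273 to 77646343, plus strand, in an intron of Mir99ahg) was at 111.3, 110.4 and 110.4 in WT and at 115.5 in each of the 3 WT + EtOH libraries. The difference was 4.77 ± 0.285 (SE, n = 3 libraries per group, adjusted p = 3.22e-05 by limma). With only precursors above 0 in at least 3 of the 12 libraries fitted, it was 4.77 ± 1.21 (SE, limma adjusted p = 0.0464). These values are ranks 5, 6 and 6 in WT and rank 3 in every WT + EtOH library, and the highest 14 ranks carry the same values in each library, so that an SD of 0 here is an equal rank and not an equal amount of RNA. mir-125a (chromosome 17, 17830812 to 17830879, plus strand, in an exon of Spaca6) was at 109.3, 111.3 and 111.3 in WT and at 114.9 in each WT + EtOH library, rank 4, a difference of 4.22 ± 0.497 (SE, n = 3 per group, limma adjusted p = 0.00437). In every WT library ranks 3 and 4 were held by mir-26a-1 and mir-26a-2, which were at ranks 5 to 10 in WT + EtOH. A rise of mir-125b-2 and mir-125a cannot be told from a move up in rank as the mir-26a precursors fell, and this was not tested. The call of mir-125a was lost with centring on miR-181a and miR-181b (adjusted p = 0.0723) and with precursors above 0 in at least 3 of the 12 libraries (adjusted p = 0.0794). Its neighbour let-7e overlapped between the groups, with a difference of -2.35.

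mir-351 (chromosome X, 53053255 to 53053353, minus strand), the third up-regulated precursor with this seed, was at 58.8, 55.1 and 53.9 in WT and at 64.6, 62.3 and 64.6 in WT + EtOH. The difference was 7.93 ± 1.27 (SE, n = 3 per group, limma adjusted p = 0.0212), and the call was lost without WT + EtOH replicate 1 (adjusted p = 0.0616) or replicate 3, WT replicate 2 or 3, or TLR4-KO + EtOH replicate 2 (adjusted p up to 0.0928). The 4th member, mir-125b-1, overlapped between the groups, at 106.4, 106.4 and 102.3 in WT and 101.4, 109.3 and 109.3 in WT + EtOH (adjusted p = 1). mir-125b-1 and mir-125b-2 encode the same 5p sequence printed above, and how the authors divided such reads between precursors is not given in the sources used here. All 4 means of the family were higher, with a median difference of 4.50. Within 10 kb of mir-351 lies mir-322, which has the seed of miR-15 and miR-16, and its libraries were all lower, at 21.7, 19.5 and 17.6 in WT and 2.72, 0 and 11.3 in WT + EtOH (difference -14.9 ± 7.51, SE, limma adjusted p = 0.524). The other 5 members of that X-linked cluster were at 0 in all 6 libraries.

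Among the 6 up-regulated precursors mir-7224 showed the largest difference. It lies on chromosome 2 (67675457 to 67675516, plus strand) in an intron of B3galt1. Its values were 29.3, 26.95 and 30.1 in WT and 37.8, 42.5 and 45.7 in WT + EtOH, a difference of 13.2 ± 1.95 (SE, n = 3 per group, limma adjusted p = 0.0140). mir-150, which is abundant in mature lymphocytes, lies on chromosome 7 (45121757 to 45121821, plus strand). It was at 69.7, 68.7 and 69.7 in WT and at 74.1, 76.8 and 79.4 in WT + EtOH, a difference of 7.41 ± 1.43 (SE, n = 3 per group, limma adjusted p = 0.0444). mir-744 (chromosome 11, 65734733 to 65734832, minus strand, in an intron of Map2k4) was at 75.6, 76.0 and 75.6 in WT and at 80.6, 81.6 and 85.2 in WT + EtOH, a difference of 6.73 ± 1.26 (SE, n = 3 per group, limma adjusted p = 0.0407). The groups did not overlap for any of these 3 precursors. The calls of mir-150 and mir-744 were lost on leaving out any 1 library other than WT + EtOH replicate 1, TLR4-KO replicate 1 or TLR4-KO replicate 3 (adjusted p up to 0.165 and 0.144), and that of mir-7224 without WT replicate 2 or WT + EtOH replicate 2 (adjusted p up to 0.0748).

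The down-regulated mir-451a encodes a miRNA of red blood cells that is matured by Ago2 without Dicer. It lies on chromosome 11 (78073170 to 78073241, plus strand), and mir-451b is read from the opposite strand of the same stretch. Both rows held the same values, 50.2, 50.2 and 46.3 in WT and 31.7, 35.3 and 36.01 in WT + EtOH, and count as 1 measurement. The difference was -14.6 ± 2.63 (SE, n = 3 per group, limma adjusted p = 0.0346), and the adjusted p was 0.0756 without WT + EtOH replicate 1. The call was lost without any 1 of the 6 libraries compared, and without TLR4-KO replicate 2 or TLR4-KO + EtOH replicate 2 (adjusted p up to 0.125). mir-144, which is cut from the same transcript as mir-451a, was at 4.204, 8.17 and 0 in WT and at 15.98, 0 and 0 in WT + EtOH. Of the other erythroid precursors, mir-486a overlapped (difference -0.383), and mir-486b was at 92.4, 92.4 and 89.7 in WT and 96.6, 100.2 and 102.3 in WT + EtOH (difference 8.19 ± 2.53, SE, limma adjusted p = 0.196). The erythroid list thus held 2 down-regulated rows, none up-regulated, and values on both sides.

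The miR-183 cluster on chromosome 6, which is best known from sensory organs, had lower means in all 3 members. mir-96 (30169446 to 30169551, minus strand) was at 12.1, 15.3 and 23.7 in WT and at 0 in all 3 WT + EtOH libraries (difference -17.0 ± 2.41, SE, n = 3 per group, limma adjusted p = 0.0128). mir-182 was at 90.3, 109.3 and 107.8 in WT and at 91.7, 75.6 and 48.6 in WT + EtOH, the largest difference of means among precursors above 0 in all 3 libraries of a group (-30.5 ± 10.1, SE, limma adjusted p = 0.227). mir-183 was at 74.8, 87.7 and 82.4 in WT and at 78.0, 65.6 and 33.4 in WT + EtOH (-22.7 ± 9.82, SE, limma adjusted p = 0.387). In mir-182 and mir-183 the groups overlapped through WT + EtOH replicate 1, and without that library the differences were -40.4 (adjusted p = 0.0756) and -32.2 (adjusted p = 0.160).

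mir-6952 (chromosome 15, 76064828 to 76064888, minus strand, in an intron of Scrib) was at 4.204, 4.23 and 5.23 in WT and at 0 in WT + EtOH, with the smallest adjusted p of all (-4.56 ± 0.234, SE, n = 3 per group, limma adjusted p = 1.85e-05). The same 3 WT values and the same zeros were held by mir-137, mir-29a, mir-1251 and mir-467a-1, whose adjusted p values were 0.913 to 1. Their standard errors, 3.44 to 4.72, differ from that of mir-6952 through the TLR4-KO libraries, in which mir-6952 was at 0 throughout. Its WT values lie below the lowest value above 0 of WT + EtOH replicates 2 and 3. With only precursors above 0 in at least 3 of the 12 libraries fitted, its difference was -4.56 ± 1.20 (SE, limma adjusted p = 0.0478).

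**Figure D1:**
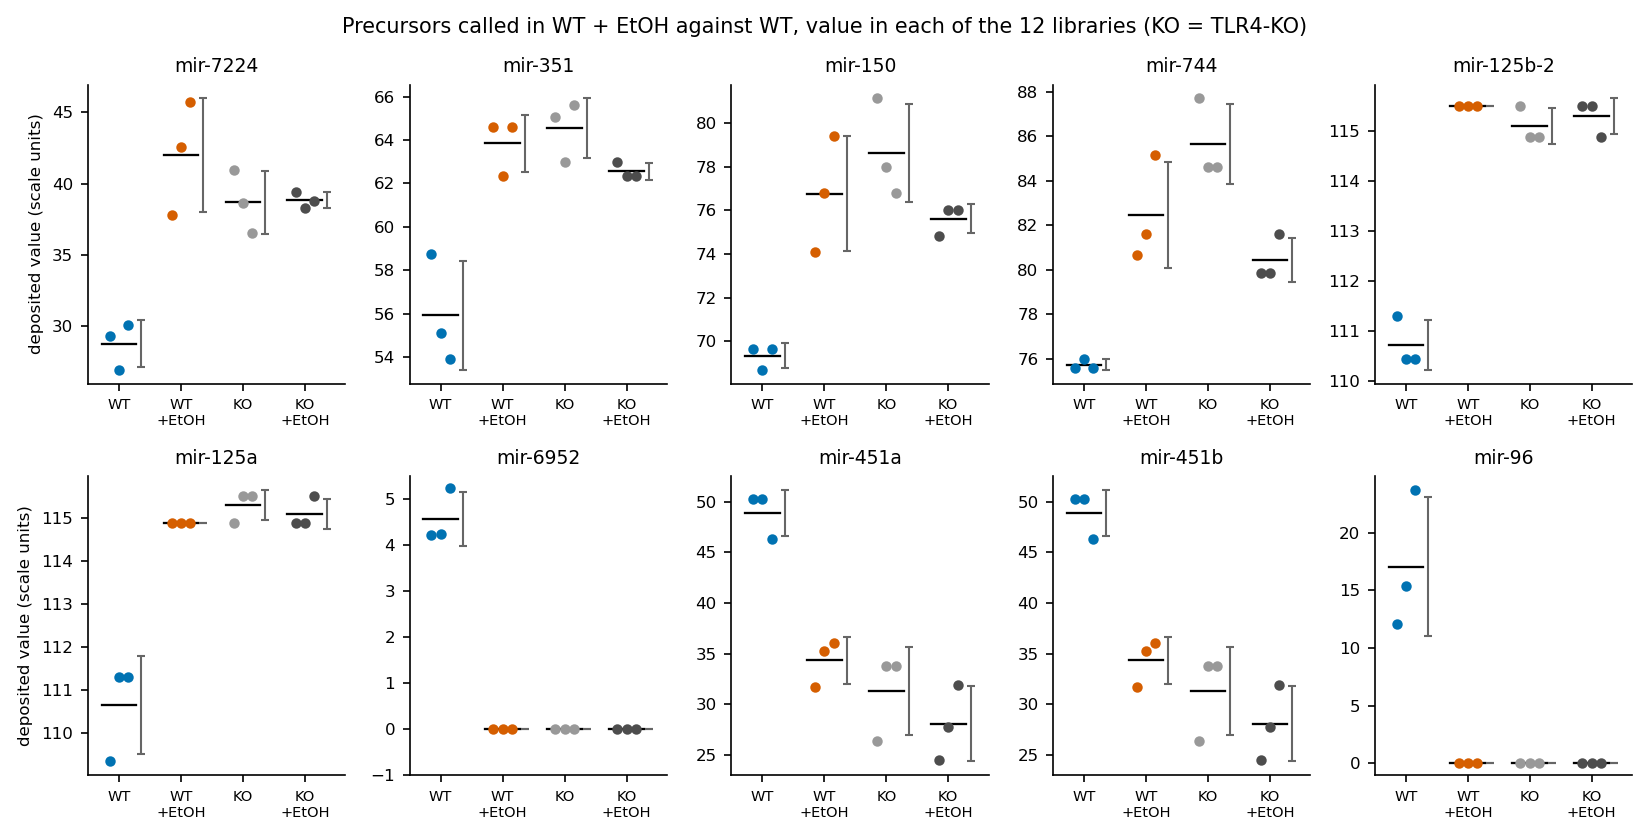
Deposited value (scale units, each panel with its own axis that need not start at 0) of the 10 called precursors in each of the 12 libraries, with points for libraries, a black line for the group mean and a grey bar for 1 SD (n = 3). In every panel the 3 WT libraries are separate from the other 9, and mir-451a and mir-451b are identical.

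The plot of the called precursors shows that the separation was of WT from everything else. For all 6 up-regulated precursors the WT libraries were below the other 9 libraries, and for all 4 down-regulated ones above them. mir-351, for instance, was at 53.9 to 58.8 in WT, and at 62.3 to 65.6 in the 9 other libraries. mir-150 was at 68.7 to 69.7 in WT, and at 74.1 to 81.1 elsewhere. mir-451a was at 46.3 to 50.2 in WT, and at 24.5 to 36.01 elsewhere. Over the 324 precursors above 0 in any of the 12 libraries, the WT libraries lay apart from the other 9 for 40 (17 below and 23 above). For each of the 3 remaining groups the same count was 4. The 4 precursors in which WT + EtOH stood apart were mir-384, mir-574, mir-674 and mir-5103, and none of them was called. These counts are a description, and since the 10 calls were made with the WT libraries the agreement of the 3 other groups is not a second test of ethanol.

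The ethanol difference itself was compared between the genotypes with the contrast of both differences, which uses the same WT and WT + EtOH libraries. It was called for 7 of 589 precursors (1.19%), with 74 at an unadjusted p under 0.05. Among the 10 precursors called in WT + EtOH, 5 were called in it: mir-6952, mir-125b-2, mir-125a, mir-744 and mir-351. Since mir-6952 was at 0 in every TLR4-KO and TLR4-KO + EtOH library, its difference of effects only repeats its WT difference with the sign turned. The difference of mir-744 was 6.73 in WT and -5.20 in TLR4-KO (difference of effects -11.9 ± 1.79, SE, limma adjusted p = 0.0258). That of mir-351 was 7.93 in WT and -2.005 in TLR4-KO (limma adjusted p = 0.0416). For mir-96, mir-7224, mir-150, mir-451a and mir-451b the difference of effects did not pass, with adjusted p values of 0.0511 to 0.263.

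Several precursors came close to the threshold. mir-128-1, a neuronal miRNA precursor in an intron of R3hdm1, was at 65.6, 58.3 and 60.2 in WT and at 68.7, 70.6 and 72.7 in WT + EtOH (difference 9.29, limma adjusted p = 0.0563). mir-1981 was at 34.9, 37.7 and 32.3 in WT and at 41.7, 43.9 and 47.4 in WT + EtOH (difference 9.39, limma adjusted p = 0.0563). mir-423 was at 45.6, 44.6 and 47.1 in WT and at 51.6, 54.7 and 52.7 in WT + EtOH (difference 7.24, limma adjusted p = 0.0649). The libraries of both groups were fully separate in all 3. mir-5103, mir-674 and mir-181c were also higher without overlap, by 8.80, 9.12 and 3.76, at adjusted p values of 0.0896 to 0.121.

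On the lower side, mir-143, a miRNA of smooth muscle, was at 83.7, 83.3 and 85.2 in WT and at 76.0, 78.8 and 78.0 in WT + EtOH (difference -6.45, limma adjusted p = 0.0649). mir-384, on the X chromosome, has the seed of the miR-30 family, and was at 41.3, 41.8 and 37.0 in WT and at 19.5, 23.95 and 29.6 in WT + EtOH (difference -15.7, limma adjusted p = 0.120). mir-26b, in an intron of Ctdsp1, was at 62.3, 62.3 and 62.0 in WT and at 46.9, 51.9 and 54.98 in WT + EtOH (difference -10.97, limma adjusted p = 0.120). In all 3 every WT + EtOH library was below every WT library.

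The miR-200 family, which maintains epithelial identity by repressing ZEB factors, was low in WT and at or near 0 in WT + EtOH. mir-200b was at 12.1, 27.7 and 27.5 in WT and at 0 in WT + EtOH (difference -22.4 ± 4.75, SE, limma adjusted p = 0.0616). mir-200a was at 17.6, 25.7 and 21.7 in WT and at 10.95, 0 and 0 in WT + EtOH (difference -18.0 ± 4.68, SE, limma adjusted p = 0.120). mir-141 was above 0 in 2 WT libraries, and mir-200c was at 0 in all 6. The summed level of the 4 epithelial markers, which are these 4 precursors, was 51.4 to 54.4 in WT and 0 to 10.95 in WT + EtOH. In a bulk sample fewer cells of a type and less RNA per cell cannot be told apart. mir-375, a pituitary and pancreatic marker, was at 14.7, 8.17 and 5.23 in WT and at 0 in WT + EtOH, whereas mir-216a and mir-217 were at 0 in all 6.

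Detection differed between the groups near the lowest values. In WT 286 precursors were above 0 in at least 1 library and 238 in all 3, and in WT + EtOH 280 and 211. A total of 259 were above 0 in both groups, 27 in WT alone and 21 in WT + EtOH alone. All 3 WT and no WT + EtOH libraries held 10 precursors, and the reverse held 4. Of the 27 in WT alone, 18 had their highest WT value under 11.3, the lowest value above 0 in WT + EtOH replicate 3, and the part of this detection level in their absence was not tested. Of the other 9, mir-200b, mir-96, mir-375 and mir-574 were above 0 in all 3 WT libraries. mir-574 was at 14.7, 17.2 and 11.2 in WT (difference -14.4, limma adjusted p = 0.0983).

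The 4 precursors above 0 in all 3 WT + EtOH libraries and in no WT library were mir-490, mir-5122, mir-505 and mir-712. mir-490, in an intron of the muscarinic receptor gene Chrm2, was at 12.03, 20.5 and 22.8 (difference 18.4 ± 4.79, SE, limma adjusted p = 0.120). mir-5122 was at 8.39, 20.5 and 15.02, and its mature sequence is 85.0% G and C. mir-505 and mir-712 held the same values in all 6 libraries, 8.39, 17.2 and 19.8 in WT + EtOH. These values exceed the lowest value above 0 of all 3 WT libraries. mir-222 was at 10.9, 4.23 and 0 in WT and at 25.4, 23.95 and 17.6 in WT + EtOH (difference 17.3, limma adjusted p = 0.244).

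**Figure D2:**
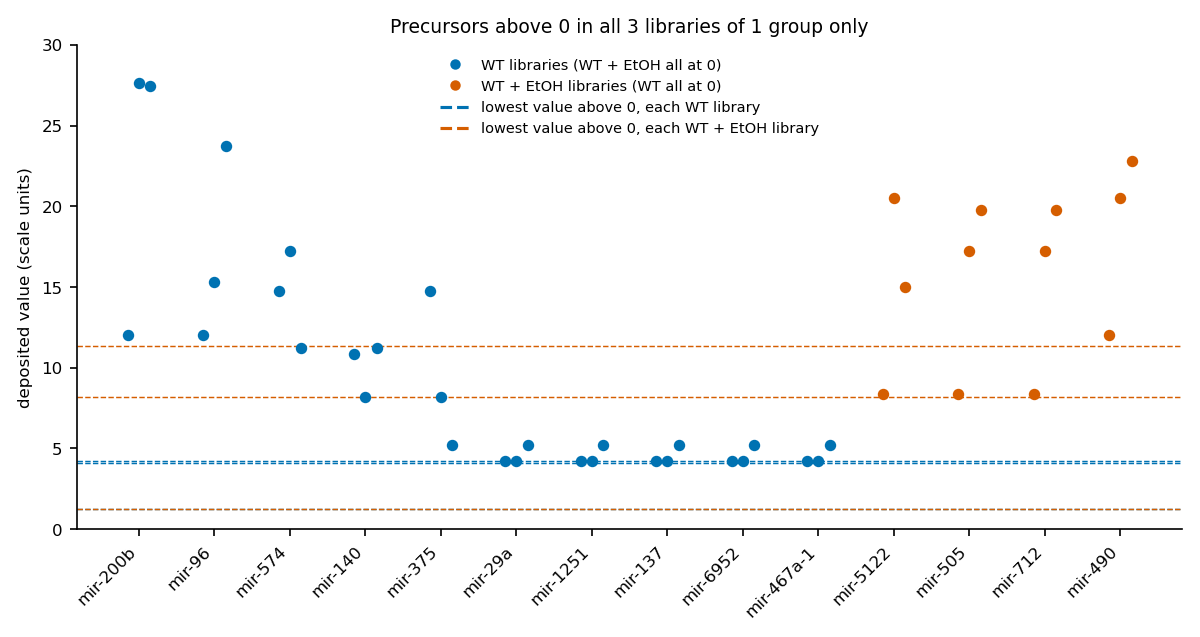
Deposited value (scale units) of the 14 precursors above 0 in all 3 libraries of 1 group and at 0 in the other, with points for libraries and dashed lines for the lowest value above 0 in each library (the line at 1.25 is shared by WT replicate 1 and WT + EtOH replicate 1). mir-29a, mir-1251, mir-137, mir-6952 and mir-467a-1 sit at 4.204 to 5.23, under the lowest lines of WT + EtOH replicates 2 and 3, and mir-200b reaches 27.7.

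Families that share a seed or a cluster are described by their counts beside the 14.0% higher and 18.2% lower without overlap among all 307 precursors. Members of a family with the same mature sequence share reads and are not independent. In the miR-26 family all 3 members were lower without overlap, with a median difference of -6.12 (mir-26a-1 at 115.5 in each WT library, and 106.4, 111.3 and 110.4 in WT + EtOH). In the miR-9 precursors, whose miRNA is typical of neural cells, all 3 were lower without overlap, with a median difference of -5.14 (mir-9-1 at 94.6, 93.7 and 93.4 in WT, and 85.2, 88.7 and 90.0 in WT + EtOH). Neither family held a called member. With the line on G and C content taken out of each library, as described further on, the differences of mir-9-1, mir-9-2 and mir-9-3 became -0.806, 0.413 and 0.0142, so that the latter 2 changed direction.

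In the family of miR-15 and miR-16 4 of 6 were lower and none higher without overlap, with a median difference of -5.70. mir-16-2 was at 80.6, 80.9 and 80.6 in WT and at 73.3, 74.0 and 77.0 in WT + EtOH (limma adjusted p = 0.251), while mir-497a overlapped with a difference of 4.94. Among 13 let-7 precursors, which time development, 4 were lower and 1 was higher without overlap (median -2.35). let-7g was at 81.6, 77.3 and 78.8 in WT and at 69.7, 72.7 and 75.6 in WT + EtOH, and let-7b went the other way, at 84.6, 82.4 and 83.7 in WT and 93.0, 90.3 and 88.7 in WT + EtOH (limma adjusted p = 0.190 and 0.233). In the miR-30 family 1 of 7 was lower without overlap (median -1.96), and in the miR-17 family clusters 1 of 5, mir-93 (median -4.46).

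Of the miR-181 family, from which the study took miR-181a and miR-181b as internal controls, 1 of 6 members was higher without overlap, mir-181c, which was not a control, and the family median was 0. mir-181a-1 and mir-181a-2 held the first ranks with 1 fixed value in every library, so that no change can appear in them while they hold these ranks. In the miR-99 and miR-100 family 1 of 2 was higher without overlap, mir-100, at 76.8, 78.0 and 76.8 in WT and 94.6, 83.7 and 80.6 in WT + EtOH (limma adjusted p = 0.267). The miR-29 family had 1 of 3 in each direction (median 0.323). Its lower member, mir-29a, had WT values under the lowest value above 0 of WT + EtOH replicates 2 and 3. The miR-7 family (median -3.79), the cluster of miR-191 and miR-425 (2.72) and the clusters of miR-23, miR-27 and miR-24 (-1.29) had no member without overlap. In the pair miR-221 and miR-222 1 of 2 was higher, and in the miR-344 family 1 of 2 lower without overlap (medians 10.7 and -3.20). The lower mir-344d-3, like mir-29a, had WT values under those lowest values of WT + EtOH replicates 2 and 3.

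The TLR4-NF-kB responsive list is of interest because the study asked what TLR4 contributes. None of its members was called. mir-155 and mir-223 were at 0 in all 6 libraries, and the 4 members above 0 all had lower means, with 2 of them lower without overlap and a median difference of -7.19. mir-146a, a feedback inhibitor of TLR signalling, was at 46.4, 46.4 and 48.6 in WT and at 37.8, 42.5 and 42.5 in WT + EtOH (difference -6.21, limma adjusted p = 0.806). mir-21a was at 50.6, 49.5 and 49.8 in WT and at 37.8, 42.5 and 44.99 in WT + EtOH (difference -8.21, limma adjusted p = 0.518). mir-132, which CREB induces, overlapped (difference -0.256), as did its partner mir-212 (3.05), and the median of that pair was 1.40.

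Among the leukocyte-enriched precursors, 2 of 3 above 0 were higher without overlap, mir-150 and mir-342 (26.95, 21.5 and 17.6 in WT, 33.4, 38.2 and 27.1 in WT + EtOH, limma adjusted p = 0.244), and the median was 7.41. mir-142a, found throughout the blood lineage, overlapped widely, at 44.2, 45.9 and 42.7 in WT and 55.5, 28.3 and 40.5 in WT + EtOH. Of the vascular list 1 of 4 was higher and 2 were lower without overlap (median -5.94). mir-145a, which shares a transcript with mir-143, was at 52.7, 58.8 and 55.6 in WT and at 67.7, 63.5 and 60.2 in WT + EtOH (difference 8.09, limma adjusted p = 0.151), opposite to mir-143. The endothelial mir-126a was at 59.7, 60.7 and 63.0 in WT and at 51.1, 55.03 and 57.6 in WT + EtOH (limma adjusted p = 0.289).

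Of 13 neuron-enriched precursors 3 were higher and 3 lower without overlap, with a median difference of 3.90. The higher ones were mir-128-1, mir-128-2 and mir-129-2, and mir-137, mir-218-1 and mir-218-2 were lower, the last at 60.2, 56.1 and 61.0 in WT and 46.0, 51.1 and 53.6 in WT + EtOH (limma adjusted p = 0.194). The WT values of mir-137 were under the lowest value above 0 of WT + EtOH replicates 2 and 3. Of 5 oligodendrocyte precursors 1 was lower without overlap, mir-3065 (median 1.41). None of 3 choroid plexus and ciliated-cell precursors was free of overlap (median -0.768), with mir-204 at 81.1, 84.6 and 81.1 in WT and 93.7, 86.1 and 82.4 in WT + EtOH.

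The imprinted Dlk1-Dio3 cluster on chromosome 12 held 39 precursors above 0, of which 5 were higher and 9 lower without overlap (median -1.32). mir-376b was at 37.9, 40.2 and 39.6 in WT and at 25.4, 31.2 and 24.03 in WT + EtOH (difference -12.4, limma adjusted p = 0.151), and mir-376a likewise was lower (-12.2, limma adjusted p = 0.181). mir-485 and mir-666 of the same cluster were higher without overlap, both by 6.03. The repeat-rich Sfmbt2 intron cluster held 19, of which 1 was lower without overlap (median 0.770). This was mir-467a-1, with WT values under the lowest value above 0 of WT + EtOH replicates 2 and 3. Among 15 precursors tied to ethanol in earlier brain studies, 5 were lower and 1 was higher without overlap (median -1.86). In a list taken from earlier work on these data (mir-744, mir-872, mir-423 and mir-346) 2 were higher and 1 was lower without overlap (median 5.63).

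**Figure D3:**
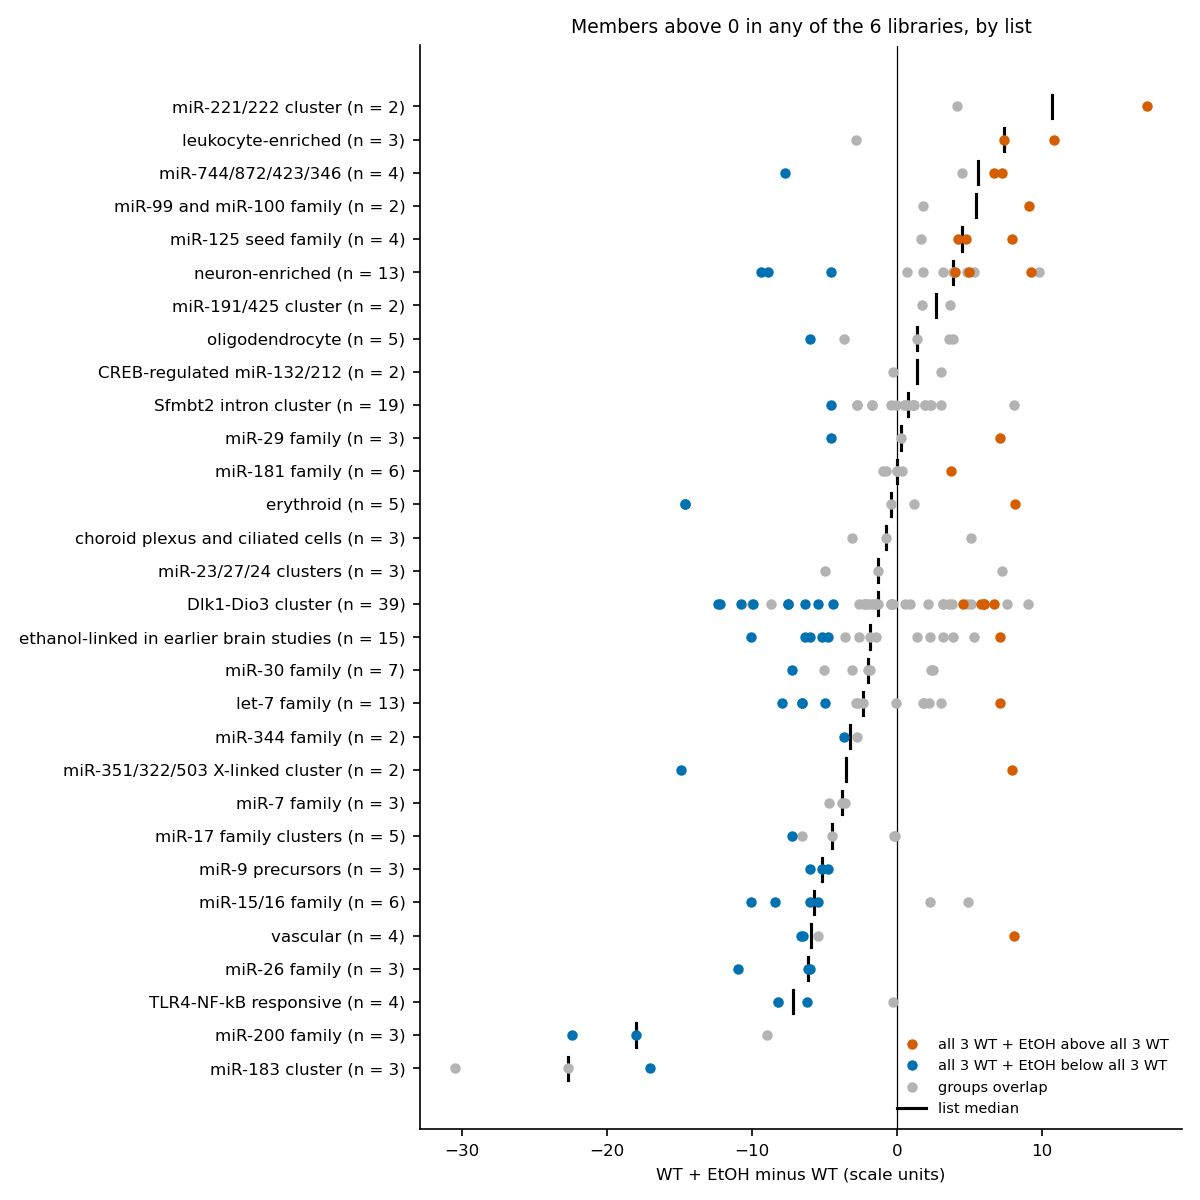
Difference WT + EtOH minus WT (scale units) of the members above 0 in any of the 6 libraries, 1 row per list, coloured by whether the 3 libraries of each group overlap and with the list's median as a black tick. The miR-183 cluster and the miR-200 family lie lowest with medians of -22.7 and -18.0, and the miR-125 seed family has all 4 members above 0.

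The direction of the differences followed the base composition of the mature miRNA. The G and C content (mean of the mature arms listed in RefSeq) was known for 172 of the 190 precursors above 0 in all 12 libraries. Over these, the difference WT + EtOH minus WT had a Spearman's rho of 0.521 and a Pearson's r of 0.465 with the G and C content, a description across precursors that share libraries and in part sequences. Divided by G and C content, the 46 precursors with the least (31.0% to 43.2%) had 23 that were lower and 0 higher without overlap, with a median difference of -5.03. The next 40, up to 48.8%, had a median of -1.76, with 10 lower and 5 higher, and the 43 above those, up to 56.1%, had a median of 1.65, with 3 lower and 11 higher. Of the 43 with the most (56.8% to 85.7%) 3 were lower and 16 higher, with a median of 4.43.

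The same was seen among the precursors with an unadjusted p under 0.05. The 32 higher ones with a sequence had a median G and C content of 54.95%, the 35 lower ones 43.2%, and all 263 above 0 in any of the 6 libraries 49.0%. By the printed arm alone, miR-26b-5p, miR-9-5p and miR-384-5p hold 33.3%, 34.8% and 34.8% of G and C. In the same way miR-351-5p, miR-744-5p and miR-7224-5p hold 62.5%, 63.6% and 61.9%. By the mean of the listed arms, which the medians use, mir-26b, mir-9-1 and mir-384 have 41.7%, 33.3% and 31.0%. On that measure mir-351, mir-744 and mir-7224 have 64.6%, 56.8% and 61.9%. Families did not all follow this order. The miR-9 and miR-26 precursors, with low medians of difference, have median contents of 33.3% and 41.7%, and the miR-125 seed family 54.5%. The miR-17 family clusters, however, have 53.2% with a median difference of -4.46, the pair miR-221 and miR-222 47.7% with 10.7, and the miR-29 family 39.4% with 0.323. Among the 172 precursors above 0 in all 12 libraries, the differences of mir-182 and mir-183, at 47.8% and 43.2%, were far below the others of like composition.

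**Figure D4:**
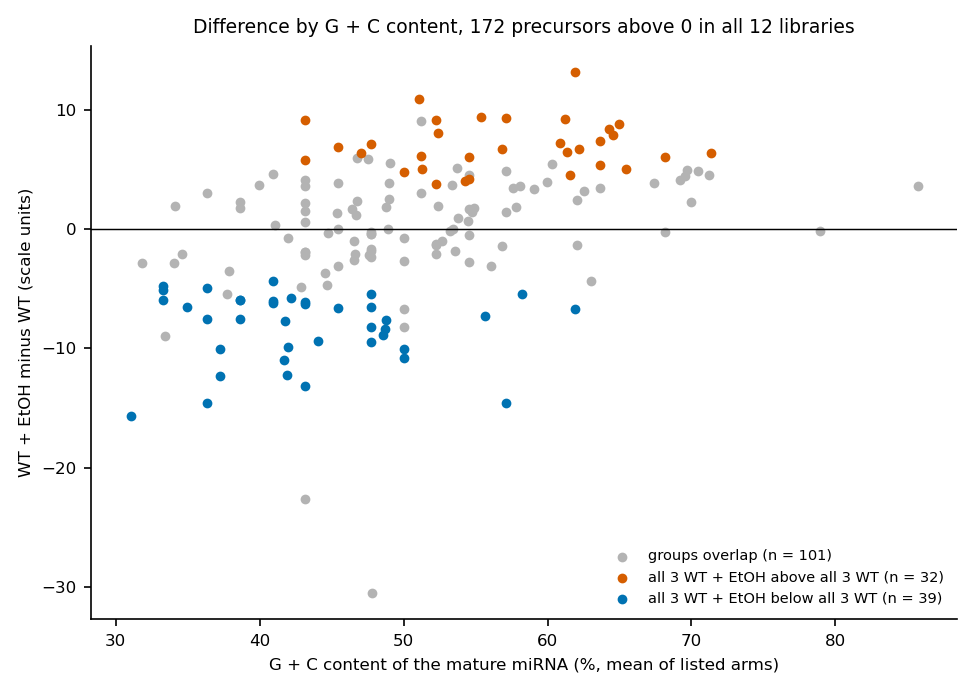
Difference WT + EtOH minus WT (scale units) against the G and C content of the mature miRNA (%) for 172 precursors above 0 in all 12 libraries, each point 1 precursor, coloured by whether the groups overlap. Points without overlap are mostly below 0 on the left and above 0 on the right, and the 2 lowest points are mir-182 (-30.5) and mir-183 (-22.7).

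Taken library by library, the slope of the value on G and C content was -7.25, -6.79 and -6.68 scale units per 10 percentage points in WT, and -4.87, -3.59 and -3.17 in WT + EtOH. The means were -6.91 ± 0.301 and -3.88 ± 0.883 (SD, n = 3 libraries each), and the groups did not overlap (two-sided exact permutation p = 0.1, the smallest that 3 against 3 allows). In the TLR4-KO libraries the slopes were -2.60, -3.09 and -3.99, and in TLR4-KO + EtOH -4.81, -3.35 and -4.02. The steep slope was thus held by the 3 WT libraries alone of the 12, as were the levels of the called precursors. In TLR4-KO the ethanol difference had a Spearman's rho of -0.183 with G and C content.

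**Figure D5:**
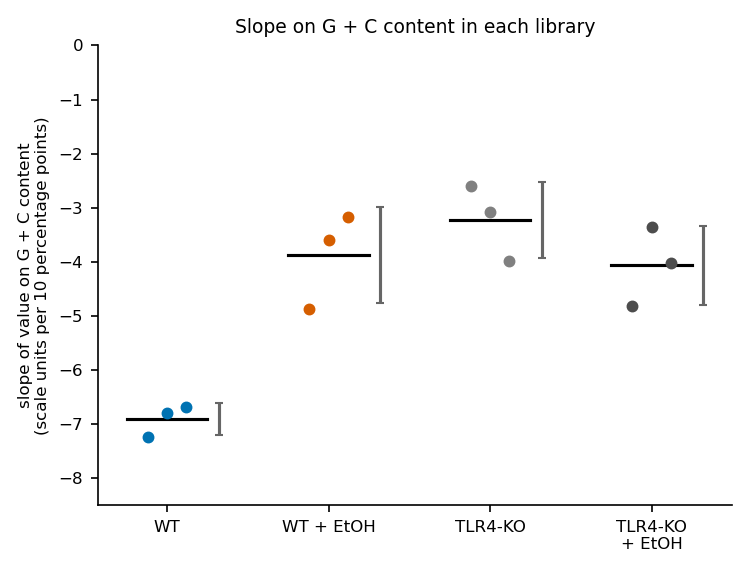
Slope of the deposited value on the G and C content of the mature miRNA (scale units per 10 percentage points, 172 precursors) in each of the 12 libraries, with a black line for the group mean and a grey bar for 1 SD (n = 3). The WT libraries lie at -7.25 to -6.68, and the 9 others at -4.87 to -2.60.

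When the line on G and C content was taken out of each library, 2 precursors remained called among these 172, against 16 without the correction. They were mir-7224 (difference 9.69, limma adjusted p = 0.0295) and mir-451b. mir-451b is listed with a G and C content of 57.1%, whereas mir-451a, which holds the same values, has 36.4%, and its adjusted p after the correction was 0.108. mir-451a itself had a difference of -10.4. The difference of mir-125b-2 was 4.86 after the correction, and its adjusted p became 0.108. The differences of mir-150 and mir-351 fell by more than 1.5 times, to 3.37 (adjusted p = 0.192) and 3.595 (adjusted p = 0.301). For mir-150 the G and C content was that of the 3p arm alone. Those of mir-125a and mir-744 became 2.94 (adjusted p = 0.205) and 4.76 (adjusted p = 0.121). mir-182 and mir-183 kept differences of -29.8 and -20.5, with adjusted p values of 0.121 and 0.177. mir-96 and mir-6952, at 0 in most libraries, were outside this comparison. The part of base composition in the differences between WT + EtOH and WT was not tested.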

How the data were processed

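Small RNA of the cortex (miRNeasy, TruSeq small RNA libraries) was sequenced in 12 libraries of 4 groups. Per the labels, the submitters' processing notes name FastQC 0.11.6, cutadapt, Bowtie2 2.2.5, TopHat and the build GRCm38. By the methods, the authors removed low-quality alignments, counted reads per miRNA and normalized the counts by the trimmed mean of M values. The deposited values are a score, taken to be a scaled log, which was not tested. As seen in the values, they lie on equal levels by rank in each library, with 0 kept at 0. They are not counts, so that no count model was run, and the depth of each library is unknown. The step that gave these levels is not described in the methods. It limits what can be seen, because a rank level cannot show a change of the total.

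Groups were compared with the moderated test of limma 3.58.1 under R 4.3.3, fitted to all 12 libraries with 1 mean per group and default eBayes, with Benjamini-Hochberg adjustment over the 589 rows and a threshold of 0.05 (prior degrees of freedom 0.308, total 8.31). Whether the pools shared cages or days is not stated, and p-values measure the spread between these pools. Of the 589 rows, 265 were at 0 in all 12 libraries, and they enter the spread that eBayes shares between rows. Exact permutation tests of 3 against 3 libraries cannot go below 0.1. Positions are from GENCODE M21 (568 of 589 found) and mature sequences from RefSeq (485). Named precursors are those called, the 15 next by p, the 5 largest differences each way, up to 5 members per list, those above 0 in 1 group alone, partners within 10 kb of a called one, and those called between genotypes. The members and lists were chosen with earlier results of these data known. Alternatives were another normalization, 2 centrings, 2 filters, the 6 libraries alone, a replicate block, the number of precursors above 0 as a covariate, merging of copies equal within 1% (578 rows left), robust or trended eBayes and leaving out each library. A common floor of 14.1 and removal of a line on G and C content were chosen after seeing the data. Analyses used Python 3.11.15, numpy 2.4.6, pandas 2.3.3 and matplotlib 3.10.9.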

Additional observations from a re-analysis of the deposited data

Results flagged for a closer look

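A test of the difference between the ethanol effects of both genotypes (the difference in TLR4-KO mice minus that in WT mice) singled out 7 precursors. The difference of effects was 4.56 for mir-6952 (limma adjusted p = 0.000305), -4.56 for mir-125b-2 (adjusted p = 0.00073), -11.9 for mir-744 (adjusted p = 0.0258), -4.43 for mir-125a (adjusted p = 0.0280), 5.54 for mir-3087 (adjusted p = 0.0280), 18.4 for mir-344d-3 (adjusted p = 0.0280) and -9.93 for mir-351 (adjusted p = 0.0416). For mir-6952, mir-125b-2, mir-125a, mir-744 and mir-351 the WT libraries stood apart from the other 9. The WT libraries enter both this contrast and the comparison of WT + EtOH with WT. Since mir-6952 was at 0 in every TLR4-KO and TLR4-KO + EtOH library, its difference of effects is its WT difference with the sign turned. Its WT values lie below the lowest value above 0 of WT + EtOH replicates 2 and 3, and the part of this detection level was not tested.

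For 2 of the 7 the TLR4-KO + EtOH libraries stood out instead. mir-3087 was at 0 in both WT groups and in TLR4-KO, and at 4.08, 5.26 and 7.29 in TLR4-KO + EtOH, which are the lowest values above 0 in those libraries. mir-344d-3 held values of 4.204, 4.23 and 5.23 in WT, 2.72, 0 and 0 in WT + EtOH, 4.204, 0 and 0 in TLR4-KO, and 19.4, 18.1 and 10.95 in TLR4-KO + EtOH. The part of the detection level in these values was not tested.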

How the results depend on the processing

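The number of precursors called in WT + EtOH against WT was 10. It was 21 with precursors above 0 in at least 3 of 12 libraries, 17 with those above 0 in all 6, and 59 (22 higher, 37 lower) with the number of precursors above 0 as a covariate. With the alternatives added after seeing the data it was 4 (all higher) with a common floor, 2 with the line on G and C content removed and 16 with the same precursors uncorrected. It was 10 with quantile normalization, 14 and 15 (8 higher, 7 lower) with the centrings, 7 (1 higher, 6 lower) with the 6 libraries alone, 9 with copies merged, 9 with robust and 11 with trended eBayes. Leaving out 1 library gave 4 to 18 calls, and moved the count by over 1.5 times for WT replicate 2 (4) and 3 (5), WT + EtOH replicates 2 and 3 (6 each), TLR4-KO replicate 1 (18) and 2 (6) and TLR4-KO + EtOH replicate 2 (5). mir-6952, mir-125b-2, mir-125a and mir-96 stayed called in all 12 of these. Among the other alternatives, mir-744 lost its call with centring on miR-181a and miR-181b (adjusted p = 0.0605), mir-150 with robust eBayes (0.0504), both with the replicate block and the common floor (0.0560 to 0.0723), and mir-451a with the common floor (0.0542); those of mir-125a are given with its values. WT and WT + EtOH libraries of the same replicate number showed little correlation of deviations (-0.0658, -0.0776 and 0.0191). With so few libraries this cannot show that no cage or day was shared. With the replicate block 13 were called (4 higher, 9 lower). With the common floor mir-6952 and mir-96 had differences of 0 and -3.63 and were not called, since the floor lies above most of their values.

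The 7 calls between the genotypes became 12 with centring on miR-181a and miR-181b, 13 with precursors above 0 in at least 3 libraries, 3 with the replicate block, 58 with the covariate, 3 with the common floor, 0 with the line on G and C content removed (limma; 36 at an unadjusted p under 0.05), and 2 to 15 without 1 library. Of single values, mir-144 (1.20) ran from -4.13 (without WT + EtOH replicate 1) to 3.86 over the left-out libraries, with -0.862 without WT replicate 3, and mir-9-2 and mir-9-3 reversed to 0.413 and 0.0142 with the line on G and C content removed. Where a cause is not named it was not tested. With 3 pools per group, no reads and rank levels in place of amounts, a precursor under the lowest listed value of a library cannot be told from one at 0.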
